A study of Mus musculus with 18 samples.

Results

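The comparison set sorted beta cells of control (Ctrl) mice on a high-fat diet, as the label HFD is read, against those of Ctrl mice on chow. Its members are the 5 libraries labelled Ctrl HFD and the 6 labelled Ctrl chow, 11 of the 18 libraries of the study, chosen by their labels. The other 7 libraries, 3 LIRKO HFD and 4 LIRKO chow, come from mice without the insulin receptor in the liver. The labels name no Cre driver for them. They entered the fits for their spread and the last comparison below. In every group, islets were kept in culture overnight and dispersed before a sort on scatter and native fluorescence, and total RNA was sequenced with strand kept. The labels give no age, sex, strain, length or make-up of the diet, and no description of the Ctrl alleles. Whether each library is its own animal is not stated, so a p-value measures only how these libraries spread, which may partly be technical. Replicates were numbered in the order of deposit, and the numbers pair nothing.

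Pancreatic beta cells release insulin in response to glucose. When animals are fed a fat-rich diet, other tissues respond less to insulin, and beta cells are known to secrete more and to multiply for a time. Secretion rests on glucose transport and metabolism, closure of ATP-sensitive potassium channels, folding of proinsulin in the endoplasmic reticulum (ER), its cutting by prohormone convertases, and fusion of granules. Transcription factors such as MafA, Pdx1 and Nkx6-1 keep these genes on.

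Total counts ran from 19490235 to 35281010 reads in the Ctrl HFD libraries and from 24979993 to 43987306 in the Ctrl chow libraries. The 2 insulin genes, Ins1 and Ins2, took 8.97 to 18.7% of the counts in Ctrl HFD and 11.5 to 16.9% in Ctrl chow, and fit the beta cell label. Replicates 1 and 2 of Ctrl HFD stood apart. Malat1, a long RNA that stays in the nucleus, took 1.37% and 1.06% of their counts, against 0.276 to 0.415% in Ctrl HFD replicates 3 to 5, 0.0866 to 0.368% in Ctrl chow and at most 0.6003% in any of the other 16 libraries. Protein-coding genes took 95.7% and 95.6% of their counts, against 97.5 to 98.0% in Ctrl HFD replicates 3 to 5 and 97.7 to 98.8% in Ctrl chow. In a principal component analysis of the 500 genes with the largest variance, their values on the first axis were 49.9 and 47.8, against -11.5 to -3.98 in Ctrl HFD replicates 3 to 5 and -35.3 to 4.41 in Ctrl chow. Each difference is therefore given with this Malat1-rich pair and without it. In LIRKO chow, libraries 1 and 2, and 3 and 4, were unusually alike. Their counts differed by 5.51 and 7.00 times sampling variance, against 29.6 to 307 times for the 32 other pairs of libraries within a group, the Malat1-rich pair being the closest of these. Whether such libraries are separate samples or repeats of one is not stated, and a difference beyond sampling noise does not settle it. They were kept apart, and counts of calls are also given with each of the alike LIRKO chow pairs summed.

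With all 18 libraries in one edgeR quasi-likelihood fit, 1914 of 19284 genes tested passed a Benjamini-Hochberg adjusted p under 0.05 between Ctrl HFD and Ctrl chow (9.93%). Of these, 1075 were higher on HFD (5.57%) and 839 lower (4.35%). Without the Malat1-rich pair, 34 of 18941 genes passed (0.18%), 25 higher (0.132%) and 9 lower (0.0475%). Both fits called 30 genes in the same direction, 22 higher and 8 lower, and these are the differences said here to hold. They are 0.156% of the genes tested and 1.57% of the first set of calls. Most calls sat close to the threshold. With all 18 libraries 17 genes had an adjusted p under 0.01, while 4843 had one under 0.1. The count depends on the libraries that lend their spread. It was 114 with the alike LIRKO chow libraries summed (0.577%) and 1, Npy, with the 11 Ctrl libraries alone (0.00585%). Without the Malat1-rich pair these counts were 1 (0.00518%), again Npy, and 0 (2777 genes at an unadjusted p under 0.05, edgeR). DESeq2 called 3959 genes with all libraries and 452 without the pair. An unadjusted p under 0.05 was found for 6592 of 19284 genes with all 18 libraries and 3911 of 18941 without the pair (edgeR). Counts of unadjusted p in the lists below stand beside these.

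The fits with and without the pair share all 6 Ctrl chow libraries and 3 of the 5 Ctrl HFD libraries, so their values are not independent. The fit without the pair has 3 Ctrl HFD libraries in place of 5, and what this alone costs in calls was not tested. Of the 1884 genes called with all 18 libraries only, 1847 could be tested without the pair. The median size of their log2 fold change was 0.807 with all 18 libraries and 0.503 without the pair. Without the pair 1820 of the 1847 kept their sign, 1355 of them with an unadjusted p under 0.05 (edgeR). These genes were chosen for passing with the pair only, and the 30 for passing both ways, so how their fold changes differ between the fits follows in part from that choice. Choosing genes by p-values from these same libraries also favours groups that do not overlap, so the next counts are a description only. The 5 Ctrl HFD libraries did not overlap the 6 Ctrl chow libraries for 25 of these 30 genes, against 686 of all genes tested (3.56%; 275 with HFD higher, 1.43%, and 411 with HFD lower, 2.13%) and 535 of the 1884 lost calls (28.4%). Replicates 3 to 5 alone did not overlap Ctrl chow for 1314 genes (6.81%; 627 with HFD higher, 3.25%, and 687 with HFD lower, 3.56%).

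**Figure D1:**
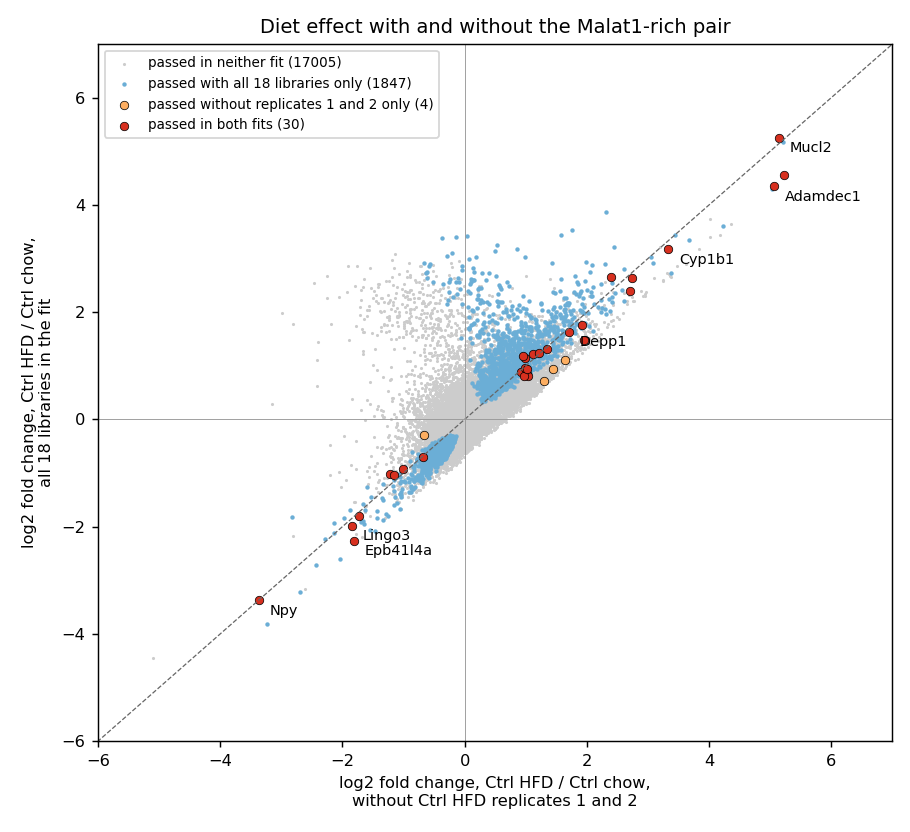
Each point is a gene tested in both fits. The vertical axis is its log2 fold change, Ctrl HFD over Ctrl chow, with all 18 libraries, and the horizontal axis that without Ctrl HFD replicates 1 and 2. Colours mark the fits in which it passed, and the dashed line is equality. The 30 genes past the threshold in both fits, red, lie near the line, and many of the 1847 in blue lie farther from 0 with the pair than without it, which the way they were chosen favours.

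Npy fell the most of the 30. It encodes neuropeptide Y, a peptide transmitter that can restrain insulin release and that immature beta cells make. Npy (ENSMUSG00000029819; GRCm38 chromosome 6, 49822710 to 49829507) had 0.397, 0.559, 0.414, 0.567 and 0.370 CPM in the Ctrl HFD libraries 1 to 5, against 1.67 to 6.71 CPM (median 5.26) in Ctrl chow. The highest Ctrl HFD library was below the lowest Ctrl chow library. Its log2 fold change was -3.38 ± 0.34 (SE; adjusted p = 2.01e-04, edgeR with Benjamini-Hochberg adjustment) and -3.36 ± 0.42 without the Malat1-rich pair (adjusted p = 0.00731). It was also the single gene to pass with the Ctrl libraries alone (adjusted p = 0.00704), and did not pass with the Ctrl libraries alone once the pair was left out (adjusted p = 0.139).

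Txnip rose on HFD. It encodes thioredoxin-interacting protein, which limits glucose uptake and binds thioredoxin, and which glucose induces through the factors ChREBP and MondoA at a pair of E-box-like elements close to its start. The 250 bases before its start are shown because they hold these elements. In this RefSeq stretch (GRCm38.p6, chr3:96557707-96557956, plus strand, 5′ to 3′), capitals mark a match to CACGNG and CNCGNG with any 5 bases between them, searched on both strands, from 85 to 69 bases before the start.
Txnip: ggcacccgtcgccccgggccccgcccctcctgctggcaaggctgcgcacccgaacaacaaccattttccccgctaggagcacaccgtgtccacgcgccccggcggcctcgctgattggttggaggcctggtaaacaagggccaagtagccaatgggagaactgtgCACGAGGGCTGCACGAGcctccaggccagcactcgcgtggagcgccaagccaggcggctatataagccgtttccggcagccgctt
The same stretch holds the forkhead letters GTAAACA from 121 bases before the start. The paired E-box letters occur in 120 of 32851 RefSeq windows, which run from 250 bases before to 50 after a start (0.365%), and the forkhead letters, which overlap none of the others, in 1199 of them (3.65%). A match is a description of the sequence, and binding was not measured.

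Txnip (GRCm38 chromosome 3, 96557957 to 96561883) had 80.8, 81.1, 99.9, 132 and 74.4 CPM in the Ctrl HFD libraries 1 to 5, against 42.9 to 69.1 CPM (median 48.7) in Ctrl chow. All 5 HFD libraries exceeded every chow library, the highest being replicate 4. The log2 fold change was 0.85 ± 0.17 (SE; edgeR adjusted p = 0.0200) and 1.02 ± 0.19 without the Malat1-rich pair (adjusted p = 0.0472). Txnip lost its call without Ctrl chow replicate 1 (adjusted p = 0.0539), without Ctrl chow replicate 6 (0.0544) and in limma voom with sample weights (0.0529). Of the 14 tested genes listed for this glucose response, Txnip and Mlxipl were called higher and Mlx, which encodes the partner of both factors, lower with all 18 libraries, and Txnip alone passed without the pair. The list's median log2 fold change was 0.00 and 0.20 without the pair, beside 0.04 and 0.03 for all genes. Mlxipl, which encodes ChREBP, had 1600.5, 1432, 485, 492.7 and 909 CPM in Ctrl HFD and 193 to 827 CPM in Ctrl chow. The pair was highest, and HFD replicates 3 and 4 lay within the chow range. Its rise of 1.15 ± 0.35 (edgeR adjusted p = 0.0487) shrank to 0.54 without the pair (adjusted p = 0.357), where it did not pass.

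Depp1, Me3 and Slc22a4 rose in both fits. Depp1, a FoxO target that acts on autophagy, had 37.0, 25.2, 23.4, 55.5 and 20.8 CPM in the Ctrl HFD libraries 1 to 5, against 5.19 to 14.3 CPM (median 11.3) in Ctrl chow. No HFD library overlapped chow, and the spread within HFD was wide, with replicate 4 highest. Depp1 rose by 1.63 ± 0.25 on the log2 scale (SE; edgeR adjusted p = 0.00817; 1.70 ± 0.29 and 0.0383 without the pair). Me3, a mitochondrial malic enzyme that makes NADPH, had 7.55, 6.98, 5.42, 5.92 and 4.36 CPM in the Ctrl HFD libraries 1 to 5, against 2.10 to 3.27 CPM (median 2.73) in Ctrl chow. Here replicates 1 and 2 were the highest of the non-overlapping HFD libraries. Its log2 rise was 1.14 ± 0.16 (edgeR adjusted p = 0.0039), and 0.98 ± 0.15 without the pair (0.0315). Slc22a4, a transporter of ergothioneine and other organic cations, had 14.0, 11.3, 8.47, 8.28 and 8.56 CPM in the Ctrl HFD libraries 1 to 5, against 3.605 to 5.74 CPM (median 4.41) in Ctrl chow. It too was highest in the pair and did not overlap, and its rise was 1.18 ± 0.16 (edgeR adjusted p = 0.0039) and 0.96 ± 0.15 without the pair (0.0315).

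Lpl, the lipase that releases fatty acids from circulating lipoproteins, fell. It had 214, 215, 192, 113 and 189 CPM in the Ctrl HFD libraries 1 to 5, against 282 to 492 CPM (median 378) in Ctrl chow. Each HFD library was below each chow library, with HFD replicate 4 lowest. The mean level was 184 ± 41.9 CPM in Ctrl HFD (SD, n = 5) and 377 ± 86.0 CPM in Ctrl chow (SD, n = 6). Its log2 fold change was -1.03 ± 0.18 (edgeR adjusted p = 0.015) and -1.15 ± 0.21 without the Malat1-rich pair (0.0472). Lpl was the single one of 37 tested genes of fatty acid uptake and oxidation to pass without the pair.

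Several held genes encode secreted or surface proteins. Gc, the vitamin D-binding protein, had 127, 129.9, 118, 165 and 123 CPM in the Ctrl HFD libraries 1 to 5, against 48.8 to 77.9 CPM (median 73.2) in Ctrl chow. The groups did not overlap, and its log2 rise was 0.94 ± 0.12 (edgeR adjusted p = 0.00323) and 1.01 ± 0.14 without the pair (0.0121). In islets Gc is best known from alpha cells, and it stands on the alpha cell marker list. Gcg, the glucagon gene and defining marker of those cells, had 279.7, 972, 3720.0, 3965 and 355 CPM in Ctrl HFD and 255 to 1634 CPM in Ctrl chow. In HFD replicates 1, 2 and 5 Gcg was within the chow range while Gc was above its own chow range. The 13 tested alpha cell markers summed to 3458, 3374, 6879, 7090 and 4419 CPM in the Ctrl HFD libraries 1 to 5, against 2608 to 3937 CPM in Ctrl chow. Replicates 3 to 5 lay above every chow library in the sum, and replicates 3 and 4 were highest in both Gcg and the sum. The sums rest largely on Peg3, which had the highest median of the 13 in both diets. Peg3 had 1886 to 3419 CPM (median 2393) in Ctrl HFD and 1125 to 2583 CPM (median 1544) in Ctrl chow. Replicate 5, with 355 CPM of Gcg, is therefore not shown by its sum to be high in alpha cell markers in general. Of the 13, 11 had a positive log2 fold change in each fit, with a median of 0.39, and 0.73 without the pair. Gc was the single one of the 13 called with all 18 libraries. Irx2, an alpha cell transcription factor, joined it without the pair, with 1.94, 1.96, 6.48, 9.42 and 5.23 CPM in Ctrl HFD and 1.57 to 3.63 CPM in Ctrl chow, replicates 1 and 2 being within the chow range, and a log2 fold change of 1.65 ± 0.31 (edgeR adjusted p = 0.0472). The part of alpha cells in these values was not tested. In such bulk samples, more or fewer cells of a type and more or less RNA per cell cannot be told apart.

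Pamr1, a secreted protein with a protease-like domain, had 155, 146, 139.9, 187 and 120.0 CPM in the Ctrl HFD libraries 1 to 5, against 71.4 to 97.0 CPM (median 80.2) in Ctrl chow. Every HFD library lay above chow, and the rise was 0.88 ± 0.15 (edgeR adjusted p = 0.014; 0.92 ± 0.18 and 0.0498 without the pair). Gucy2c, the receptor guanylate cyclase for guanylin and uroguanylin, had 34.7, 42.7, 44.6, 60.4 and 41.4 CPM in the Ctrl HFD libraries 1 to 5, against 18.3 to 38.6 CPM (median 24.5) in Ctrl chow. One overlap stood between the lowest HFD library, replicate 1, and the highest chow library. Its rise of 0.82 ± 0.17 (edgeR adjusted p = 0.0234; 0.98 ± 0.19 and 0.0487 without the pair) was lost without Ctrl chow replicate 1 (0.0599), 2 (0.0504) or 6 (0.0623) and with the LIRKO chow pairs summed (0.0551). Otoa, named for its role in the inner ear, had 29.4, 32.9, 26.6, 29.7 and 35.1 CPM in the Ctrl HFD libraries 1 to 5, against 12.1 to 21.8 CPM (median 14.8) in Ctrl chow, and its non-overlapping rise was 0.96 ± 0.15 (edgeR adjusted p = 0.00873; 0.99 ± 0.18 and 0.0472 without the pair).

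Cntfr, the binding subunit of the receptor for ciliary neurotrophic factor, had 44.4, 63.9, 53.5, 47.6 and 57.9 CPM in the Ctrl HFD libraries 1 to 5, against 77.9 to 110.4 CPM (median 83.5) in Ctrl chow. All HFD libraries were lower than chow, and the log2 fold change was -0.71 ± 0.12 (edgeR adjusted p = 0.0125; -0.67 ± 0.12 and 0.0437 without the pair). Prss53, a serine protease, had 96.9, 117, 82.5, 57.0 and 81.7 CPM in the Ctrl HFD libraries 1 to 5, against 132 to 251 CPM (median 165) in Ctrl chow. It did not overlap either, and its log2 fold change was -1.02 ± 0.18 (edgeR adjusted p = 0.014; -1.21 ± 0.18 and 0.0291 without the pair). Lingo3, a membrane protein with leucine-rich repeats, had 0.298, 0.652, 0.651, 0.346 and 0.660 CPM in the Ctrl HFD libraries 1 to 5, against 1.23 to 3.10 CPM (median 1.90) in Ctrl chow. Its HFD values were all below chow, with a log2 fold change of -1.98 ± 0.29 (edgeR adjusted p = 0.00587; -1.85 ± 0.32 and 0.041 without the pair).

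Within the cell, Hspa8, the constitutive cytosolic chaperone Hsc70, had 315, 603, 361, 359 and 368 CPM in the Ctrl HFD libraries 1 to 5, against 506 to 972 CPM (median 742) in Ctrl chow. HFD replicate 2 overlapped chow and the other 4 HFD libraries lay below it. Hspa8 had a log2 fold change of -0.92 ± 0.18 (edgeR adjusted p = 0.0197; -1.01 ± 0.17 and 0.0383 without the pair). It has near-identical copies in the genome, so its level is uncertain where reads were shared, and its call was lost without Ctrl HFD replicate 1 (0.0649) or Ctrl chow replicate 1 (0.0519) or 6 (0.0582). Epb41l4a, a band 4.1 family member that ties membrane proteins to the cytoskeleton, had 2.33, 1.58, 5.77, 4.53 and 5.23 CPM in the Ctrl HFD libraries 1 to 5, against 9.09 to 24.6 CPM (median 20.7) in Ctrl chow. No library overlapped, and the pair was lowest. The log2 fold change of Epb41l4a was -2.26 ± 0.36 (edgeR adjusted p = 0.00872; -1.81 ± 0.34 and 0.0472 without the pair).

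Rflna, which binds filamin, had 33.5, 23.0, 21.6, 27.3 and 18.5 CPM in the Ctrl HFD libraries 1 to 5, against 8.05 to 14.0 CPM (median 10.4) in Ctrl chow, a non-overlapping rise of 1.22 ± 0.17 (edgeR adjusted p = 0.00513; 1.12 ± 0.18 and 0.0323 without the pair). Zdhhc22, a palmitoyl transferase, had 20.7, 24.3, 19.9, 20.4 and 19.9 CPM in the Ctrl HFD libraries 1 to 5, against 5.18 to 15.9 CPM (median 7.59) in Ctrl chow. Its 5 HFD values lay close together and above chow, and the rise was 1.25 ± 0.20 (edgeR adjusted p = 0.00873; 1.22 ± 0.23 and 0.0472 without the pair). Cpne4, a calcium-dependent phospholipid-binding copine, had 15.8, 14.9, 17.6, 15.7 and 16.7 CPM in the Ctrl HFD libraries 1 to 5, against 6.05 to 12.7 CPM (median 8.04) in Ctrl chow. It was higher in each HFD library than in any chow library, by 0.93 ± 0.16 (edgeR adjusted p = 0.014; 1.02 ± 0.19 and 0.0472 without the pair).

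**Figure D2:**
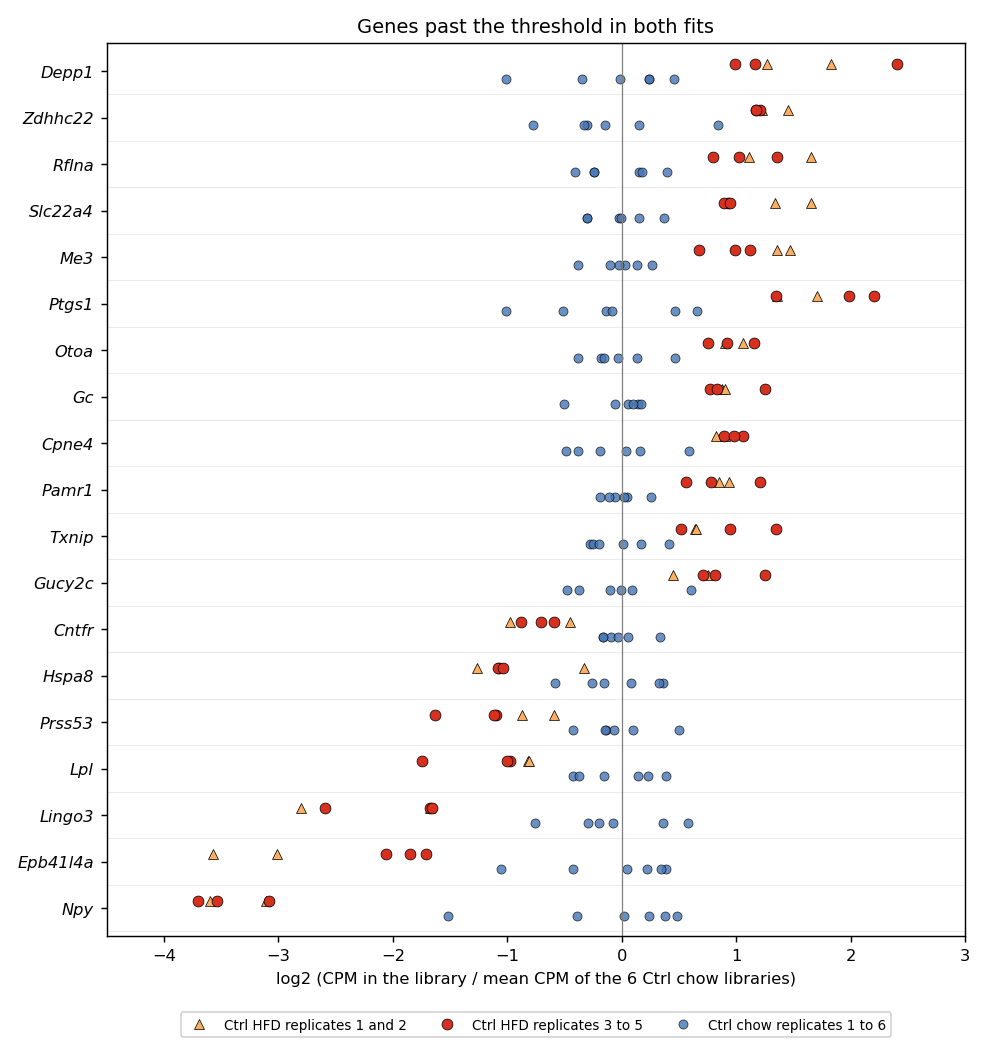
Rows are 19 genes past the threshold in both fits, those described above and Ptgs1. The horizontal axis is the log2 ratio of CPM in a library to the mean of the 6 Ctrl chow libraries. Triangles are Ctrl HFD replicates 1 and 2, red points replicates 3 to 5, and blue points Ctrl chow. Hspa8 and Gucy2c are the rows in which HFD and chow overlap. Npy, at the bottom, lies farthest from 0.

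The other 12 held genes had at most 8.77 CPM in any Ctrl library, the level of Gm13751 in one chow library. Ptgs1, cyclooxygenase 1, had 4.17, 3.26, 5.03, 5.89 and 3.25 CPM in the Ctrl HFD libraries 1 to 5, against 0.633 to 2.01 CPM (median 1.18) in Ctrl chow, with no overlap and a log2 rise of 1.76 ± 0.34 (edgeR adjusted p = 0.0167; 1.93 ± 0.37 and 0.0498 without the pair). Cyp1b1, a cytochrome P450 induced through the aryl hydrocarbon receptor, had 0.894, 0.279, 0.474, 1.48 and 0.317 CPM in the Ctrl HFD libraries 1 to 5, against 0 to 0.180 CPM (median 0.0625) in Ctrl chow. It did not overlap either, although chow values were close to 0. Jaml, an adhesion molecule of leukocytes, had 0.298, 0.466, 0.533, 1.23 and 0.317 CPM in the Ctrl HFD libraries 1 to 5, against 0.0515 to 0.147 CPM (median 0.107) in Ctrl chow, and HFD replicate 4 was highest. Adamdec1, a secreted protease-like protein that macrophages make, had 0.0496, 0.140, 1.21, 5.42 and 0.0528 CPM in the Ctrl HFD libraries 1 to 5, against 0 to 0.154 CPM (median 0.0594) in Ctrl chow. It overlapped chow in 3 of the 5 HFD libraries and was raised in replicates 3 and 4. Apol7c, one of several close copies of the apolipoprotein L family, had 0, 0.140, 0.710, 2.36 and 0.0528 CPM in the Ctrl HFD libraries 1 to 5, against 0 to 0.0633 CPM (median 0.0129) in Ctrl chow, with the same 2 libraries highest. Adamdec1 and Apol7c each kept their call in 9 of 17 other settings. They lost it with the LIRKO chow pairs summed (edgeR adjusted p = 0.0612 and 0.0607), in limma voom with sample weights (0.271 and 0.176) and without any 1 of 6 Ctrl libraries, among them HFD replicate 4, where the log2 fold changes of 4.35 and 4.56 became 2.49 and 3.09 (0.0716 and 0.0608). The others that rose were Mucl2, Nxpe2, Gm26614, 2600014E21Rik, 1110002E22Rik and ENSMUSG00000084881, to which the annotation gives no symbol. Gm13751 fell, with 2.09, 1.54, 1.84, 2.11 and 1.58 CPM in the Ctrl HFD libraries 1 to 5, against 2.57 to 8.77 CPM (median 6.86) in Ctrl chow, and no overlap.

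Macrophage markers were highest in the same HFD libraries as Adamdec1 and Apol7c. The 20 tested macrophage markers summed to 351 and 327 CPM in the Malat1-rich pair and 611, 714 and 264 CPM in Ctrl HFD replicates 3, 4 and 5, against 201 to 432 CPM in Ctrl chow. None of the 20 passed in either edgeR fit, where 7 and, without the pair, 8 had an unadjusted p under 0.05, and DESeq2 called 5 and 2. Among all genes tested, 6592 of 19284 and, without the pair, 3911 of 18941 had such an unadjusted p. Of the 20, 18 had a positive log2 fold change, with a median of 0.75, and 0.91 without the pair. Their part in Adamdec1, Apol7c, Jaml and Ptgs1 was not tested.

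Of the 25 held genes with a gene name and Gm13751, 18 kept their call in each of 17 other settings (another scaling, filter or test, the LIRKO chow pairs summed, and each Ctrl library or the pair left out), the fits of Ctrl libraries alone excepted. These 18 were Gm13751, Npy, Gc, Prss53, Slc22a4, Me3, Rflna, Depp1, Lingo3, Cntfr, Epb41l4a, Cpne4, Otoa, Zdhhc22, Lpl, Ptgs1, Nxpe2 and Mucl2. Held genes pass with the pair left out by definition, so that setting could remove none of them. Without the Malat1-rich pair, leaving out one more library gave 0 calls (without Ctrl HFD replicate 3 or 4) to 267 (without Ctrl chow replicate 3), and without replicate 4 the 30 all kept their sign and an unadjusted p under 0.05.

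Most calls among genes of beta cell function were lower on HFD, and none of these lists kept a call without the Malat1-rich pair in edgeR. Among all genes tested, 5.57% were called higher and 4.35% lower with all 18 libraries. List counts here and below stand beside these shares, and a count near them is not a result about that list. Of 19 tested identity factors, 2 were called higher and 2 lower with all 18 libraries. The median log2 fold change was -0.30 and -0.13 without the pair, beside 0.04 and 0.03 for all genes. MafA drives insulin and glucose-response genes. Mafa had 6.95, 6.24, 22.1, 21.003 and 30.8 CPM in the Ctrl HFD libraries 1 to 5, against 32.9 to 108 CPM (median 54.3) in Ctrl chow. The pair was lowest, and replicates 3 to 5 also lay below every chow library. Its log2 fold change was -1.87 ± 0.44 (edgeR adjusted p = 0.0312) and -1.33 ± 0.40 without the pair (0.151). Pdx1, a factor needed for beta cell development and insulin transcription, had 94.1, 111, 83.1, 77.7 and 104 CPM in Ctrl HFD and 98.0 to 176 CPM in Ctrl chow, which overlap. Its change was -0.55 ± 0.16 (edgeR adjusted p = 0.0425) and -0.60 without the pair (0.152).

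Isl1, an islet cell factor, had 301, 278, 154, 143 and 147 CPM in Ctrl HFD and 100.2 to 148 CPM in Ctrl chow and was called higher (0.63 ± 0.18, edgeR adjusted p = 0.0436), and the pair was highest (0.20 and 0.325 without it). Bach2, a repressor best known from B cells, had 1.89, 1.68, 1.51, 2.46 and 1.58 CPM in Ctrl HFD and 0.263 to 1.32 CPM in Ctrl chow, without overlap (1.27 ± 0.30, edgeR adjusted p = 0.0315; 1.33 and 0.118 without the pair). Nkx6-1, which holds beta cell identity, did not pass, and its sign changed with the pair. It had 634, 712, 195, 232 and 259 CPM in Ctrl HFD and 257 to 407 CPM in Ctrl chow, and a log2 fold change of 0.40, and -0.39 without replicates 1 and 2.

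Insulin granule genes gave 5 lower and 0 higher of 20 tested (median -0.43, and -0.32 without the pair, where 0 passed, 10 had an unadjusted p under 0.05 and DESeq2 called 2). Pcsk1 and Pcsk2 encode the convertases that cut proinsulin. Pcsk1 had 89.8, 102, 332, 258 and 250.3 CPM in Ctrl HFD and 211 to 696 CPM in Ctrl chow, and its fall (-1.18 ± 0.32, edgeR adjusted p = 0.0384) was smaller without the pair (-0.69, 0.188). Pcsk2 had 2365, 2387, 2839, 2913 and 3246 CPM in Ctrl HFD and 3047 to 6202 CPM in Ctrl chow (-0.64 ± 0.17, edgeR adjusted p = 0.0377; -0.47 and 0.204 without the pair). Both overlapped chow. G6pc2, a glucose-6-phosphatase that opposes glucokinase, had 617, 792, 756, 639 and 909 CPM in Ctrl HFD and 1075 to 1720.1 CPM in Ctrl chow without overlap (-0.86 ± 0.19, edgeR adjusted p = 0.0279; -0.77 and 0.14 without the pair). Ins2 had 129472, 123795, 59881, 83907 and 89883 CPM in Ctrl HFD and 85296 to 145739 CPM in Ctrl chow and Ins1 51674, 44367, 19980.0, 25714 and 29929.5 CPM in Ctrl HFD and 27936 to 49694 CPM in Ctrl chow. Neither passed, with log2 fold changes of -0.29 and -0.27, and -0.57 and -0.67 without the pair. Reads of these near-identical genes may be split between them.

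Of 20 exocytosis genes, 3 were lower and none higher. These were Mlph and Sytl4, effectors of the granule GTPase Rab27a, and Rab27a itself. Mlph had 5.46, 5.68, 13.4, 11.3 and 12.7 CPM in the Ctrl HFD libraries 1 to 5, against 17.2 to 40.6 CPM (median 25.3) in Ctrl chow. The pair was lowest and no library overlapped, with a log2 fold change of -1.44 ± 0.26 (edgeR adjusted p = 0.015) and -1.03 ± 0.22 without the pair (0.0704). Sytl4 had 156, 138, 361, 291 and 317 CPM in Ctrl HFD and 363 to 773 CPM in Ctrl chow, without overlap (-1.13 ± 0.26, edgeR adjusted p = 0.0298; -0.72 and 0.154 without the pair). Rab27a, called lower with overlapping groups, had a log2 fold change of -0.62 ± 0.15 (edgeR adjusted p = 0.0338). Of 13 genes of glucose sensing, 1 was called higher and 3 lower, with 6 positive and 7 negative (median -0.03, and -0.05 without the pair). Gckr, which encodes the regulatory protein of glucokinase, was the gene called higher, with 1.04, 0.838, 0.326, 0.693 and 0.555 CPM in Ctrl HFD and 0.0633 to 0.479 CPM in Ctrl chow (1.55 ± 0.40, edgeR adjusted p = 0.0349; 1.22 and 0.176 without the pair). Gpd2, the mitochondrial glycerol phosphate dehydrogenase, was called lower (-0.54 ± 0.16, edgeR adjusted p = 0.0486). Kcnj11, the pore of the ATP-sensitive potassium channel, had 133, 154, 183, 165 and 194 CPM in Ctrl HFD and 203 to 271 CPM in Ctrl chow (-0.39 ± 0.12, edgeR adjusted p = 0.0456; -0.22 and 0.266 without the pair). Pcx, pyruvate carboxylase, had 136, 126, 142, 154 and 143 CPM in Ctrl HFD and 162 to 304 CPM in Ctrl chow (-0.50 ± 0.15, edgeR adjusted p = 0.0436; -0.39 and 0.208 without it). Neither Kcnj11 nor Pcx overlapped. Slc2a2, the glucose transporter GLUT2, did not pass, with 103, 81.6, 141, 85.0 and 190.0 CPM in Ctrl HFD and 112 to 348 CPM in Ctrl chow. Of 21 receptors that tune secretion, 1 was higher and 3 lower, beside 5.57% and 4.35% of all genes. Among the lower were the galanin receptor Galr1 (14.6, 19.2, 21.8, 17.1 and 23.5 CPM in Ctrl HFD and 24.8 to 36.8 CPM in Ctrl chow) and the VIP receptor Vipr1 (25.5, 29.0, 55.6, 36.5 and 42.4 CPM in Ctrl HFD and 51.5 to 72.0 CPM in Ctrl chow).

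ER chaperones and folding enzymes gave 11 lower and 0 higher of 35 tested, and 30 of the 35 had a negative log2 fold change. The median was -0.36, and -0.21 without the pair, where 0 passed, 13 had an unadjusted p under 0.05 and DESeq2 called 4. Many of these genes carry an ER stress element, which the factors ATF6 and NF-Y bind. Calr, Pdia6 and Hspa5 are classic targets. The 250 bases before the start of Calr and Pdia6, the pair with the smallest p on the list, are shown from RefSeq (GRCm38.p6, Calr chr8:84846932-84847181, minus strand, and Pdia6 chr12:17266339-17266588, plus strand, each 5′ to 3′ on the strand of its gene). Capitals mark a match on either strand to CCAAT and CCACG with any 9 bases between them, and it overlaps no other motif searched.
Calr: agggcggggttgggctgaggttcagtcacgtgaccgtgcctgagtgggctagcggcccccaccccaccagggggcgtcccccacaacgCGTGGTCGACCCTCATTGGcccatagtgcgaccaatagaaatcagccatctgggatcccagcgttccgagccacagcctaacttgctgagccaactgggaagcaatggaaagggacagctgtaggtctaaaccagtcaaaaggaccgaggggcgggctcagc
Pdia6: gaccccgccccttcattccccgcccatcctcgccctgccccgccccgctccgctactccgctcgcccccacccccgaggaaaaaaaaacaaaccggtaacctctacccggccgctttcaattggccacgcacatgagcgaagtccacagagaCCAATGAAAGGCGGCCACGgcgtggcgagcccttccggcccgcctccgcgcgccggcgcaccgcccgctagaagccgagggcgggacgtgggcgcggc
The element occurs in 39 of all 32851 windows (0.119%), in 9 of the 29 ER genes that have a window, and in 3 of the 9 such genes that were called.

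Calr, the calcium-binding chaperone calreticulin, had 738, 877, 867, 765 and 757 CPM in the Ctrl HFD libraries 1 to 5, against 939.8 to 1527 CPM (median 1259) in Ctrl chow. Every HFD library was below every chow library, and the pair was not set apart. Its log2 fold change was -0.65 ± 0.13 (edgeR adjusted p = 0.0242), and -0.61 ± 0.15 without the pair (0.107). Pdia6, a disulfide isomerase, had 247, 324, 441, 465 and 388 CPM in the Ctrl HFD libraries 1 to 5, against 476 to 799 CPM (median 603) in Ctrl chow. Here replicates 1 and 2 were lowest. The change was -0.74 ± 0.16 (edgeR adjusted p = 0.0294) and -0.48 ± 0.15 without them (0.156). Manf, a secreted protective factor, had 163, 233, 197, 159.8 and 189.9 CPM in Ctrl HFD and 207 to 399 CPM in Ctrl chow (-0.57 ± 0.15, edgeR adjusted p = 0.0348; -0.57 and 0.136 without the pair). Sdf2l1, a chaperone partner, had 37.7, 56.5, 51.9, 71.0 and 49.3 CPM in Ctrl HFD and 58.7 to 111 CPM in Ctrl chow (-0.63 ± 0.16, edgeR adjusted p = 0.0352). Hspa5, the master chaperone BiP, did not pass (-0.48 ± 0.19, edgeR adjusted p = 0.0965; -0.19 without the pair), with 964, 1230.1, 1779, 2260.3 and 1397 CPM in Ctrl HFD and 1457 to 2506 CPM in Ctrl chow.

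Amino acid genes under ATF4, the factor of the integrated stress response, gave 5 lower and 1 higher of 30 tested (median -0.24, and -0.07 without the pair, where 0 passed, 9 had an unadjusted p under 0.05 and DESeq2 called 2). Psat1, of serine synthesis, had 43.3, 49.95, 58.2, 51.0 and 61.3 CPM in Ctrl HFD and 74.8 to 119 CPM in Ctrl chow, without overlap (-0.78 ± 0.15, edgeR adjusted p = 0.0167; -0.63 and 0.117 without the pair). Mthfd2, of mitochondrial folate metabolism, had 154, 193, 189.7, 174 and 203 CPM in Ctrl HFD and 229.9 to 297 CPM in Ctrl chow, again without overlap (-0.53 ± 0.10, edgeR adjusted p = 0.0187; -0.43 and 0.0936 without the pair). Nupr1, a stress-induced nuclear protein, was the gene called higher, with 1373, 1148, 459, 724 and 851 CPM in Ctrl HFD and 298 to 639 CPM in Ctrl chow, highest in the pair (1.08 ± 0.24, edgeR adjusted p = 0.0298; 0.69 and 0.162 without it). Ddit3, which encodes CHOP, had 566, 564, 394, 240.3 and 391 CPM in Ctrl HFD and 284 to 505 CPM in Ctrl chow, did not pass, and had log2 fold changes of 0.22 and -0.07 without the pair.

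Sterol and fatty acid synthesis genes were also called lower. Cholesterol synthesis and uptake genes, which SREBP-2 drives, gave 10 lower and 0 higher of 26 tested, and 24 of the 26 were negative. The median was -0.49, and -0.35 without the pair, where 0 passed, 12 had an unadjusted p under 0.05, DESeq2 called 2 and again 24 were negative. Msmo1, a sterol demethylation enzyme, had 50.8, 44.2, 60.2, 74.1 and 68.1 CPM in the Ctrl HFD libraries 1 to 5, against 90.8 to 131 CPM (median 106) in Ctrl chow. No library overlapped, and the pair was lowest. The log2 fold change was -0.86 ± 0.17 (edgeR adjusted p = 0.0189) and -0.64 ± 0.18 without the pair (0.135). Idi1, isopentenyl diphosphate isomerase, had 0.993, 0.605, 2.40, 2.02 and 2.72 CPM in Ctrl HFD and 3.03 to 5.46 CPM in Ctrl chow (-1.34 ± 0.33, edgeR adjusted p = 0.0338; -0.88 and 0.156 without the pair). Srebf2, which encodes SREBP-2, had 82.8, 77.9, 102, 114 and 111 CPM in Ctrl HFD and 122 to 183 CPM in Ctrl chow (-0.50 ± 0.14, edgeR adjusted p = 0.043). These did not overlap between diets.

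Fatty acid synthesis and storage gave 6 lower and 2 higher of 25 tested (median -0.26, and -0.06 without the pair). Scd1 and Scd2, desaturases that make monounsaturated fatty acids, fell. Scd1 had 0.596, 0.466, 1.66, 1.07 and 1.14 CPM in the Ctrl HFD libraries 1 to 5, against 2.43 to 4.72 CPM (median 3.80) in Ctrl chow. Its log2 fold change was -1.84 ± 0.33 (edgeR adjusted p = 0.015) and -1.43 ± 0.33 without the pair (0.0855). Scd2 had 47.0, 63.5, 94.2, 96.6 and 104 CPM in the Ctrl HFD libraries 1 to 5, against 144 to 230.1 CPM (median 174) in Ctrl chow. It changed by -1.15 ± 0.24 (edgeR adjusted p = 0.0234) and -0.82 ± 0.23 without the pair (0.138). Neither overlapped, and both were lowest in the pair. They are close paralogs, so reads may have been shared. Acly, which makes cytosolic acetyl-CoA, and Elovl6, an elongase, were lower too (-0.76 and -0.63; edgeR adjusted p = 0.0468 and 0.0298). Pnpla3, a lipid droplet protein, was higher (9.73, 11.3, 5.77, 7.46 and 6.95 CPM in Ctrl HFD and 2.34 to 6.03 CPM in Ctrl chow; log2 fold change 1.11, edgeR adjusted p = 0.0242).

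**Figure D3:**
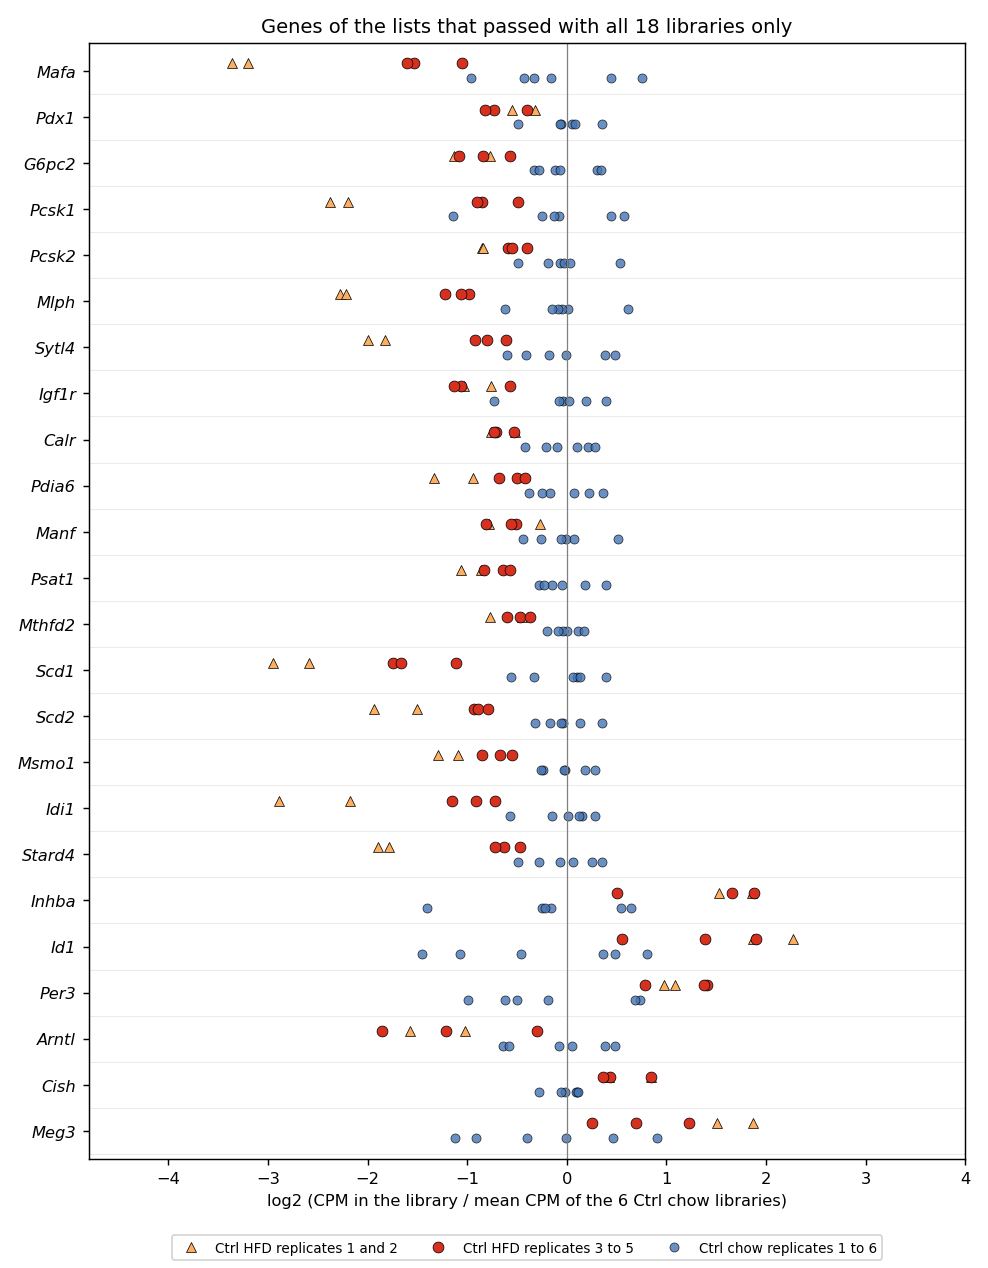
Rows are 24 genes of the lists that passed with all 18 libraries only. The axis and symbols are those of the plot of held genes, with Ctrl HFD replicates 1 and 2 as triangles. Mafa, Pcsk1, Mlph, Scd1, Idi1 and Stard4 were lowest in the triangles. Calr, G6pc2 and Cish show no such gap between the triangles and the red points.

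**Figure D4:**
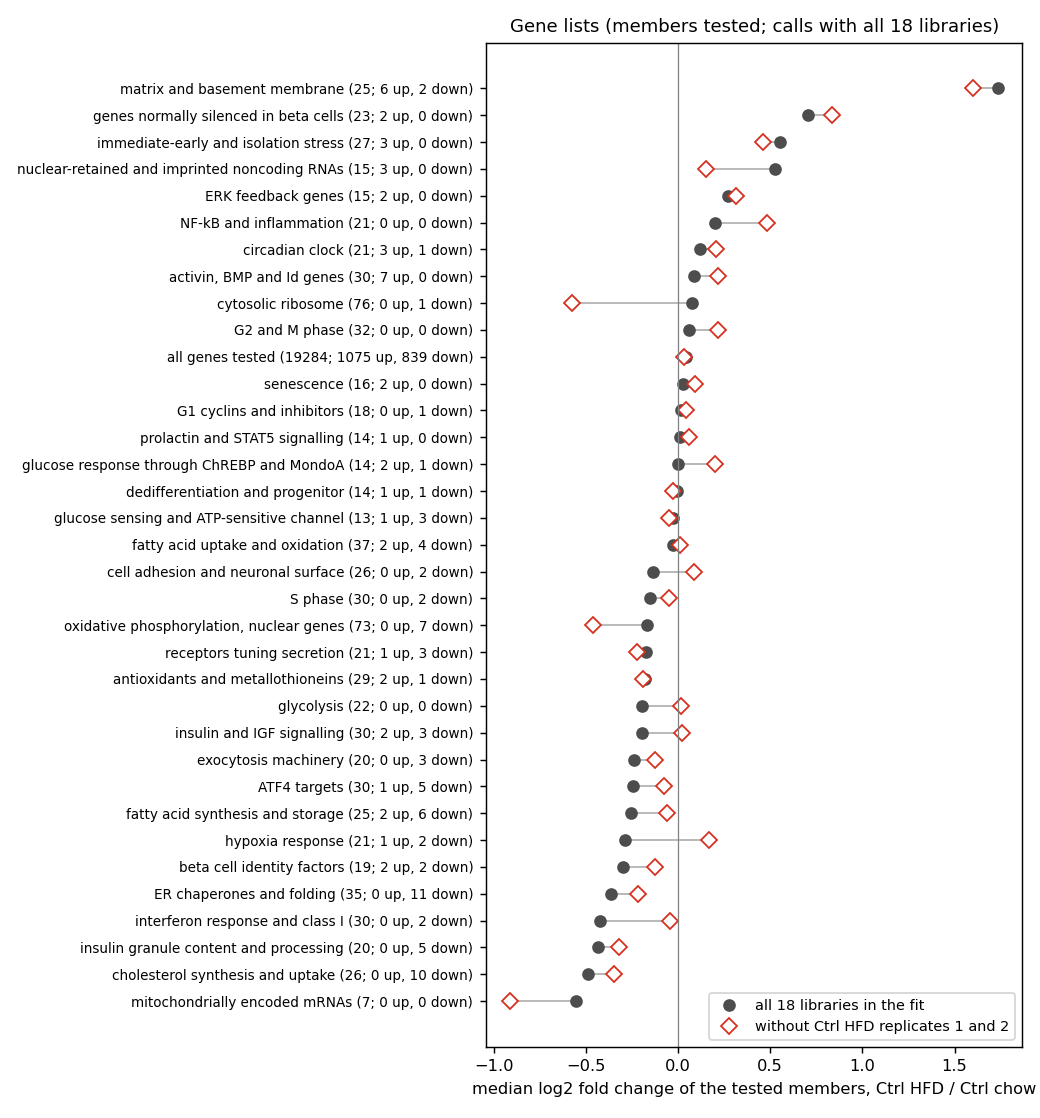
Each row is a list of genes, with the number of members tested and called with all 18 libraries. The axis is the median log2 fold change of the tested members, Ctrl HFD over Ctrl chow, filled with all 18 libraries and open without Ctrl HFD replicates 1 and 2. Cytosolic ribosome genes changed sign, at 0.08 and -0.57, and all genes tested were at 0.04 and 0.03.

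Insulin and IGF signalling gave 2 higher and 3 lower of 30 tested, beside 5.57% and 4.35% of all genes. Igf1r, the IGF1 receptor, had 325, 270.3, 372, 264 and 252 CPM in the Ctrl HFD libraries 1 to 5, against 331 to 726 CPM (median 548) in Ctrl chow. HFD replicate 3 overlapped chow, and the log2 fold change was -0.89 ± 0.18 (edgeR adjusted p = 0.0181) and -0.85 ± 0.21 without the pair (0.107). Insr, the insulin receptor, had 33.4, 35.8, 59.4, 57.2 and 63.5 CPM in Ctrl HFD and 45.4 to 61.8 CPM in Ctrl chow. It did not pass, and its log2 fold change was -0.08 and 0.23 without the pair. Irs2, an adaptor of both receptors, did not pass either (0.27 and 0.60). Igfbp3, which binds IGFs, had 8.09, 39.0, 25.9, 57.2 and 5.26 CPM in Ctrl HFD and 1.73 to 9.73 CPM in Ctrl chow and Igf1 1.59, 1.54, 1.30, 1.54 and 0.317 CPM in Ctrl HFD and 0.185 to 0.901 CPM in Ctrl chow. Both were called higher (2.42 ± 0.74 and 1.67 ± 0.48; edgeR adjusted p = 0.0478 and 0.0423), with overlap.

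Activin, BMP and Id genes gave 7 higher and 0 lower of 30 tested (median 0.09, and 0.21 without the pair, where 0 passed, 8 had an unadjusted p under 0.05 and DESeq2 called 2). Inhba, a subunit of activin, had 7.30, 5.77, 6.33, 7.40 and 2.85 CPM in the Ctrl HFD libraries 1 to 5, against 0.760 to 3.14 CPM (median 1.76) in Ctrl chow. HFD replicate 5 was within the chow range and the other 4 above it. Its log2 fold change was 1.56 ± 0.29 (edgeR adjusted p = 0.016) and 1.49 ± 0.33 without the pair (0.0784). Id1, a BMP-induced inhibitor of helix-loop-helix factors, had 6.26, 4.75, 3.40, 4.85 and 1.90 CPM in Ctrl HFD and 0.475 to 2.27 CPM in Ctrl chow (1.69 ± 0.47, edgeR adjusted p = 0.0395; 1.41 and 0.184 without the pair). Tgfb1 had 5.96, 7.26, 11.8, 13.9 and 6.37 CPM in Ctrl HFD and 2.88 to 5.82 CPM in Ctrl chow (1.07 ± 0.33, edgeR adjusted p = 0.0493; 1.35 and 0.13 without it). Smad6, Tgfbr2, Fstl1 and Acvr2b were the others, and several of these genes are also expressed in endothelial and stromal cells, whose markers are given below.

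Of 21 tested clock genes, 3 were higher and 1 lower with all 18 libraries, and without the pair 0 passed, 6 had an unadjusted p under 0.05 and DESeq2 called 1. Arntl, which encodes the activator BMAL1, had 9.04, 6.15, 5.06, 7.94 and 14.9 CPM in Ctrl HFD and 11.8 to 25.7 CPM in Ctrl chow (-1.09 ± 0.29, edgeR adjusted p = 0.0384; -0.93 and 0.183 without the pair). Per3, a repressor of that activator, had 50.5, 54.4, 68.3, 66.8 and 44.3 CPM in Ctrl HFD and 12.9 to 42.6 CPM in Ctrl chow (1.15 ± 0.30, edgeR adjusted p = 0.0348; 1.26 and 0.139 without it). Dbp, an output of the clock, had 51.9, 111, 49.4, 65.1 and 52.5 CPM in Ctrl HFD and 18.97 to 66.0 CPM in Ctrl chow (0.96 ± 0.29, edgeR adjusted p = 0.0454; 0.75 and 0.197 without it). Per3 did not overlap between diets, while Arntl and Dbp did.

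Cell division genes gave few calls. Of 32 tested genes of G2 and M phase, 0 passed in either edgeR fit (median 0.06, and 0.22 without the pair), 4 and, without the pair, 2 had an unadjusted p under 0.05, and DESeq2 called 1 and 0. Mki67, the Ki-67 antigen of dividing cells, had 3.77, 3.12, 2.96, 9.79 and 3.65 CPM in Ctrl HFD and 2.05 to 6.04 CPM in Ctrl chow, and its log2 fold change of 0.35 ± 0.33 (edgeR adjusted p = 0.459) turned to -0.12 without Ctrl HFD replicate 4. Of 30 S phase genes 2 were lower, beside 4.35% of all genes. These were Pcna and Rfc4, which serve the replication fork (-0.71 and -0.67, edgeR adjusted p = 0.0403 and 0.0306). Ccnd1, cyclin D1, had 46.1, 69.0, 119.9, 108 and 111 CPM in Ctrl HFD and 122 to 161 CPM in Ctrl chow (-0.61 ± 0.19, edgeR adjusted p = 0.0488; -0.25 and 0.215 without the pair), and Ccnd2, the main D-type cyclin of mouse beta cells, had 1025, 1002, 725, 619 and 649.8 CPM in Ctrl HFD and 787 to 1049 CPM in Ctrl chow and did not pass.

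Energy and translation genes shifted when the pair was left out. Nuclear genes of oxidative phosphorylation gave 7 lower and 0 higher of 73 tested (median -0.17), and without the pair 0 passed while all 73 were negative (median -0.46), 38 had an unadjusted p under 0.05 and DESeq2 called 5. Cycs, cytochrome c, had 17.4, 20.9, 22.7, 20.97 and 23.5 CPM in Ctrl HFD and 25.1 to 54.8 CPM in Ctrl chow, without overlap (-0.74 ± 0.18, edgeR adjusted p = 0.0338; -0.61 and 0.173 without the pair). Of 76 ribosomal protein genes 49 were positive with all 18 libraries (median 0.08) and 0 without the pair (median -0.57). Rpl7a was the single edgeR call, made with all 18 libraries. An unadjusted p under 0.05 was found for 3 of the 76 and, without the pair, 57, and DESeq2 called 1 and 2. For all genes these unadjusted counts were 6592 of 19284 and 3911 of 18941. Mitochondrially encoded mRNAs gave 0 calls of 7 tested in either edgeR fit, with medians of -0.56 and, without the pair, -0.91. Of the 7, 2 and 6 had an unadjusted p under 0.05, and DESeq2 called 0 and 2.

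Genes normally silenced in beta cells gave 2 higher of 23, a share near that of all genes called higher (5.57%). The 2 were Fcgrt, the neonatal Fc receptor, and Nfib, a transcription factor. Of the 23, 20 had a positive log2 fold change, and 19 without the pair, where 0 passed. The median was 0.70, and 0.84 without the pair, beside 0.04 and 0.03 for all genes. An unadjusted p under 0.05 (edgeR) was found for 9 and, without the pair, 7. Endothelial markers, described below, summed to 200.2 to 407 CPM in Ctrl HFD and 47.4 to 254 CPM in Ctrl chow, and their part in these genes was not tested. Fcgrt had 1.94, 2.61, 1.57, 2.80 and 0.634 CPM in Ctrl HFD and 0.317 to 0.718 CPM in Ctrl chow (2.03 ± 0.39, edgeR adjusted p = 0.0167; 1.89 and 0.0855 without the pair). Among 14 dedifferentiation and progenitor genes, Npy fell, as given above, and Cck, cholecystokinin, was called higher. Cck had 0.546, 1.54, 0.207, 0.220 and 0.0528 CPM in Ctrl HFD and 0 to 0.0772 CPM in Ctrl chow, with the pair highest (3.87 ± 0.83, edgeR adjusted p = 0.0264; 2.31 and 0.171 without it). Aldh1a3, a marker of failing beta cells, did not pass (1.62 ± 0.60, edgeR adjusted p = 0.0771), with 11.2, 17.97, 8.85, 24.3 and 13.9 CPM in Ctrl HFD and 1.14 to 21.1 CPM in Ctrl chow, where one chow library, replicate 3, reached the HFD values. Cish, a feedback inhibitor of STAT5 signalling, had 26.9, 20.1, 20.2, 27.0 and 19.2 CPM in the Ctrl HFD libraries 1 to 5, against 12.4 to 16.2 CPM (median 15.4) in Ctrl chow. It did not overlap, and its log2 fold change was 0.60 ± 0.13 (edgeR adjusted p = 0.0279) and 0.60 ± 0.14 without the pair (0.0917).

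Among the other lists, stress-induced early genes gave 3 higher of 27 tested (median 0.55, and 0.46 without the pair), namely Egr2, Nr4a1 and Ier2, transcription factors and a regulator that respond within minutes to stimuli or handling. Nr4a1 had 52.5, 41.8, 52.5, 77.8 and 38.4 CPM in Ctrl HFD and 10.9 to 51.1 CPM in Ctrl chow (1.15 ± 0.33, edgeR adjusted p = 0.0421; 1.28 and 0.151 without the pair). Spry1, a feedback inhibitor of ERK signalling, was one of 2 called higher of 15 genes of that pathway. Spry1 had 1.64, 2.05, 1.66, 1.86 and 1.27 CPM in Ctrl HFD and 0.216 to 1.11 CPM in Ctrl chow, without overlap (1.76 ± 0.44, edgeR adjusted p = 0.0338; 1.71 and 0.147 without the pair). Gpx3, a secreted glutathione peroxidase, had 166, 404, 95.3, 197 and 57.6 CPM in Ctrl HFD and 40.7 to 99.8 CPM in Ctrl chow, highest in HFD replicate 2 (1.31 ± 0.35, edgeR adjusted p = 0.0384; 0.70 and 0.217 without it). Nrcam, a neuronal adhesion molecule, had 15.0, 12.8, 44.3, 30.9 and 30.7 CPM in Ctrl HFD and 38.4 to 100.2 CPM in Ctrl chow, lowest in the pair (-1.28 ± 0.38, edgeR adjusted p = 0.0447; -0.84 and 0.232 without it). Lists of glycolysis and of NF-kB gave 0 calls of 22 and of 21 in either edgeR fit. An unadjusted p under 0.05 was found for 4 glycolysis genes and, without the pair, 3, and for 0 and 3 NF-kB genes, and DESeq2 called 2 and 0 glycolysis genes and 0 NF-kB genes.

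The largest changes among genes called with all 18 libraries only included the following. Dapl1, named for its likeness to a death-associated protein, had 40.1, 39.3, 4.35, 2.90 and 7.03 CPM in the Ctrl HFD libraries 1 to 5, against 3.24 to 5.55 CPM (median 4.13) in Ctrl chow. The pair was far above the other libraries, and HFD replicate 5 also exceeded chow. The log2 fold change of 2.17 ± 0.55 (edgeR adjusted p = 0.0338) became 0.25 ± 0.31 without it (0.656). Lin7a, a scaffold of cell polarity, had 8.89, 8.10, 3.08, 2.61 and 2.54 CPM in Ctrl HFD and 0.239 to 3.32 CPM in Ctrl chow, also highest in the pair (2.40 ± 0.55, edgeR adjusted p = 0.0309; 1.55 and 0.177 without it). Nptx2, a neuronal pentraxin, had 0.298, 0.279, 1.12, 3.15 and 0.608 CPM in Ctrl HFD and 1.75 to 30.5 CPM in Ctrl chow (-3.81 ± 0.70, edgeR adjusted p = 0.0159; -3.23 and 0.0855 without the pair). Mcoln3, a lysosomal cation channel, had 1.44, 3.49, 8.35, 3.94 and 7.95 CPM in Ctrl HFD and 11.1 to 20.2 CPM in Ctrl chow, without overlap (-1.56 ± 0.34, edgeR adjusted p = 0.0279; -1.11 and 0.109 without the pair). Phactr1, an actin regulator, passed only without the pair. It had 262, 219, 148, 111 and 131 CPM in Ctrl HFD and 166 to 260.0 CPM in Ctrl chow (-0.29 ± 0.18, edgeR adjusted p = 0.256; -0.67 ± 0.13 and 0.0498 without replicates 1 and 2, its 2 highest HFD libraries).

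Of 3207 lncRNA genes tested, 259 were called higher and 16 lower with all 18 libraries (median 0.54, and 0.24 without the pair), and 2 of these 275 calls held without the pair. Of 14567 protein-coding genes, 769 were called higher and 790 lower (median -0.05, and 0.01 without the pair), and 26 held. The share of counts in lncRNA genes was 3.11 and 2.61% in the pair and 1.53 to 1.69% in Ctrl HFD replicates 3 to 5, against 0.828 to 1.66% in Ctrl chow, so the pair was highest. Malat1 had 13251, 10629, 2454, 2559 and 3864 CPM in Ctrl HFD and 1021 to 3668 CPM in Ctrl chow. It set the pair apart, so these values are a description, with no test. Meg3, an imprinted lncRNA, had 218, 169, 71.0, 139 and 96.5 CPM in Ctrl HFD and 27.5 to 112 CPM in Ctrl chow (1.22 ± 0.35, edgeR adjusted p = 0.0418; 0.82 and 0.228 without it).

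Of 18 tested endothelial markers, which mark the lining of blood vessels, all had a positive log2 fold change, and 6 were called higher with all 18 libraries (median 1.69, and 1.39 without the pair, where 0 passed). An unadjusted p under 0.05 was found for all 18 and, without the pair, for 8 (edgeR), and DESeq2 called 14 and 0. Their summed level was 378, 407, 214, 295 and 200.2 CPM in the Ctrl HFD libraries 1 to 5, against 47.4 to 254 CPM in Ctrl chow. Ctrl chow replicate 3 was the one chow library at the HFD level. Kdr, the VEGF receptor and one of the most abundant of them, had 84.1, 76.6, 48.9, 58.9 and 50.3 CPM in Ctrl HFD and 7.39 to 70.6 CPM in Ctrl chow and did not pass (edgeR adjusted p = 0.12). Pecam1, which encodes CD31, had 25.7, 33.8, 19.2, 28.5 and 12.4 CPM in Ctrl HFD and 2.87 to 16.6 CPM in Ctrl chow and did not pass either (0.0575). None of the 18 was at 0 in any of the 11 libraries.

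Stellate and fibroblast markers gave 1 call of 14, Des, desmin (median 1.61, and 1.40 without the pair), and summed to 41.9, 51.9, 101, 97.9 and 29.8 CPM in Ctrl HFD, against 11.1 to 39.8 CPM in Ctrl chow. Pdgfra and Lum, defining genes of fibroblasts, were at 0 in 6 of the 11 libraries. Matrix and basement membrane genes were tested beside these markers. Of 25, 6 were higher and 2 lower (median 1.74, and 1.598 without the pair, where 0 passed, 19 had an unadjusted p under 0.05 and DESeq2 called 2). Lama5, a basement membrane laminin chain, had 15.5, 11.03, 7.46, 16.6 and 8.03 CPM in Ctrl HFD and 1.000 to 9.14 CPM in Ctrl chow (2.03 ± 0.44, edgeR adjusted p = 0.0272; 1.92 and 0.116 without the pair). Fn1, fibronectin, had 1.49, 0.698, 12.6, 5.89 and 0.238 CPM in Ctrl HFD and 0.105 to 0.909 CPM in Ctrl chow (3.61 ± 0.87, edgeR adjusted p = 0.0328; 4.23 and 0.0627 without it). Reln, reelin, had 1.69, 0.559, 9.71, 5.98 and 3.46 CPM in Ctrl HFD and 7.58 to 32.6 CPM in Ctrl chow and was lower (-2.08 ± 0.53, edgeR adjusted p = 0.0341). Fabp4, a fatty acid-binding protein of fat, capillaries and macrophages, had 13.3, 19.4, 5.77, 12.5 and 4.52 CPM in Ctrl HFD and 0.832 to 4.51 CPM in Ctrl chow (2.33 ± 0.67, edgeR adjusted p = 0.0418; 1.83 and 0.198 without it). The part of other cells in these genes was not tested.

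Sums of exocrine and other islet markers overlapped between the diets. The 23 tested acinar markers gave 1 call, Amy1, an amylase gene with near-identical copies among which reads may be split (log2 fold change 1.42, edgeR adjusted p = 0.0338; 0.96 and 0.192 without the pair). Amy1 went against most of its list. Of the 23, 19 had a negative log2 fold change in each fit, with a median of -0.70, and -0.56 without the pair. The acinar markers summed to 55.04 to 238 CPM in Ctrl HFD and 16.02 to 753 CPM in Ctrl chow. Amy2a5 was listed at 0 in all 11 libraries. The 11 duct markers summed to 1334 to 1603 CPM in Ctrl HFD and 1302 to 1916 CPM in Ctrl chow. Most of this was Krt7, with medians of 880 CPM in Ctrl HFD and 958 CPM in Ctrl chow. Krt19, of the same list, had medians of 3.05 and 4.42 CPM, and Sox9 of 0.372 and 0.277 CPM. Sst, the hormone of delta cells, had 168, 172, 149, 267 and 98.3 CPM in Ctrl HFD and 118 to 765 CPM in Ctrl chow, and Ppy, pancreatic polypeptide, 383, 784, 633, 1201 and 164 CPM in Ctrl HFD and 152 to 1343 CPM in Ctrl chow. The 8 delta cell markers summed to 348 to 504 CPM in Ctrl HFD and 437 to 1134 CPM in Ctrl chow, and Hhex, another of that list, was listed at 0 in all 11 libraries. Neither Sst nor Ppy passed (edgeR adjusted p = 0.0811 and 0.989). The 5 tested lymphocyte markers summed to 9.93, 7.08, 23.8, 21.9 and 12.8 CPM in the Ctrl HFD libraries 1 to 5, against 6.21 to 13.8 CPM in Ctrl chow, and HFD replicates 3 and 4 were highest. Cd3d, which marks T cells, was listed at 0 in all 11 libraries. The 4 tested markers of Schwann cells and neurons summed to 103 to 126 CPM in Ctrl HFD and 132 to 192 CPM in Ctrl chow. Of these Mbp, myelin basic protein, was called lower (log2 fold change -0.66, edgeR adjusted p = 0.0298; -0.39 and 0.151 without the pair).

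**Figure D5:**
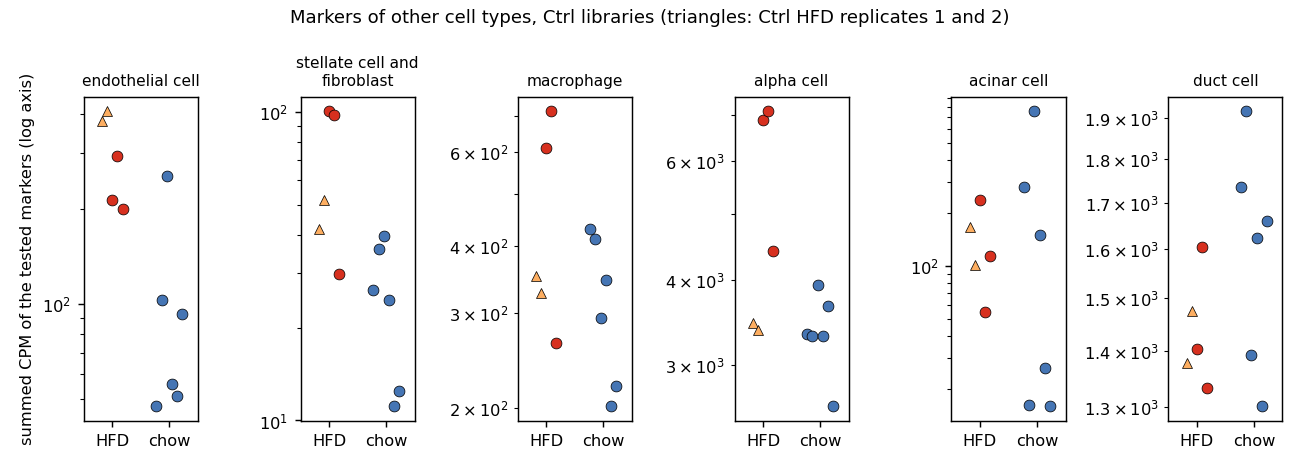
Each panel sums the CPM of the tested markers of one cell type, on a log axis that differs between panels, with Ctrl HFD on the left and Ctrl chow on the right. Each point is a library, and triangles are Ctrl HFD replicates 1 and 2. Endothelial sums were 200.2 to 407 CPM in HFD and reached 254 CPM in chow, and alpha cell and macrophage sums were highest in HFD replicates 3 and 4.

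The same diet contrast in LIRKO mice uses libraries that did not enter the values above, although it shares the estimate of the spread and the filter. There 392 of the 19284 genes passed (2.03%), 204 higher (1.06%) and 188 lower (0.975%), in the edgeR fit to all 18 libraries. With the alike LIRKO chow libraries summed, 7 of 19772 passed (0.0354%). Of the 30 genes that held in Ctrl, 26 had the same sign in LIRKO. Of all genes, 52.9% were positive in LIRKO, which is not the share whose sign matched that in Ctrl. That share was not counted, so the 26 have no background here. Of the 30, 11 were called in LIRKO, all in the same direction as in Ctrl, 6 higher and 5 lower. With the pairs summed, 1 of the 30, Npy, was called, and 16 had the same sign and an unadjusted p under 0.05. Malat1 took a median of 0.575% of counts in LIRKO HFD and 0.295% in LIRKO chow. In the same order, values on the first axis were 14.9 to 26.02 and -23.7 to -0.297. Endothelial markers summed to 320.4 to 403.6 and 22.46 to 229.2 CPM. Macrophage markers summed to 448.6 to 590.9 and 140.9 to 347.7 CPM. The LIRKO groups did not overlap in any of these, while alpha cell sums overlapped. The part of these differences in the shared signs was not tested.

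Npy had 0.0290, 0.109 and 0.125 CPM in LIRKO HFD, against 1.05, 1.05, 1.14 and 1.32 CPM in LIRKO chow. The groups did not overlap, and the log2 fold change was -3.61 (edgeR adjusted p = 0.00229; 0.0365 with the pairs summed). Lpl had 54.3, 49.3 and 43.8 CPM in LIRKO HFD, against 132, 136, 100.4 and 95.4 CPM in LIRKO chow (-1.24, edgeR adjusted p = 0.0151). Epb41l4a had 0.493, 1.57 and 1.43 CPM in LIRKO HFD, against 12.3, 12.3, 8.07 and 7.66 CPM in LIRKO chow (-3.10, edgeR adjusted p = 0.00517). Prss53 and Gm13751 were the other falls. Depp1 had 53.4, 77.2 and 70.3 CPM in LIRKO HFD, against 20.9, 20.5, 24.2 and 21.2 CPM in LIRKO chow (1.63, edgeR adjusted p = 0.0159), and Rflna 35.8, 40.8 and 36.3 CPM in LIRKO HFD, against 14.0, 13.7, 19.4 and 20.6 CPM in LIRKO chow (1.15, edgeR adjusted p = 0.0136). Ptgs1, Cyp1b1, Gm26614 and 2600014E21Rik were the other rises. Txnip had 98.6, 134 and 141 CPM in LIRKO HFD, against 73.7, 69.8, 98.7 and 95.4 CPM in LIRKO chow and did not pass (0.56, edgeR adjusted p = 0.19).

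The signs differed for Gc (-0.15 in LIRKO, 0.94 in Ctrl), Cntfr (0.32 and -0.71), Gucy2c (-0.30 and 0.82) and ENSMUSG00000084881. A test of the difference between the 2 diet effects called 1 gene of 19284 with all 18 libraries (0.00519%; 1065 at an unadjusted p under 0.05), Etv5, which is none of the 30. It called 0 with the LIRKO chow pairs summed (edgeR, 542 unadjusted). Without the Malat1-rich pair it called 8 (0.0422%), of which Cntfr was one of the 30, with a difference of 1.00 in log2 terms, LIRKO minus Ctrl (edgeR adjusted p = 0.0489). With the LIRKO chow pairs summed as well it called 2 (0.0104%), Etv5 and Fam167a, and Cntfr did not pass (edgeR adjusted p = 0.369). For the other 29 no difference between the genotypes was detected in either fit.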

How the data were processed

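The authors deposited a table of counts, whole numbers of reads per Ensembl gene and library. Per the submitters' processing notes, STAR, featureCounts and GRCm38 were used. The sources used here give no versions, annotation release or strand setting, so overlapping antisense genes may share reads. Of 53090 gene IDs, 52489 matched GENCODE M21, and the 601 others held at most 0.0176% of a library's counts. In R 4.3.3, edgeR 4.0.16 (filterByExpr, TMM, glmQLFit, glmQLFTest) was fitted to 18 libraries with 1 coefficient per group, and refitted to 16 without Ctrl HFD replicates 1 and 2. The biological coefficient of variation was 0.314 and 0.248. All tests are two-sided, and a gene passed at a Benjamini-Hochberg adjusted p under 0.05. A difference holds where it passed in both fits with the same sign. Fold changes are log2 values of HFD over chow with a standard error (SE), and counts per 1e+06 reads (CPM) use TMM-scaled library sizes. CPM are not divided by gene length, so they compare libraries and not genes. The fitting script was also tested on simulated data.

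Named genes are the largest changes that held in both fits with a mean log2 CPM of at least 2, those called in one fit only, up to 4 members per list with the smallest p, abundant markers and a set of beta cell genes. Held genes of lower level and some list members were added after their values were seen, as were the promoters shown. The comparison, the lists and the tests were chosen with earlier results of these data known. Gene lists are described by counts and medians only. Alternatives were RLE scaling, no filter on low counts, DESeq2 1.42.0, limma 3.58.1 voom with sample quality weights, Ctrl libraries alone, alike LIRKO chow libraries summed, and each Ctrl library left out. Those that also leave out the Malat1-rich pair, other than the one with Ctrl libraries alone, were chosen after seeing the data. Promoter sequences are from RefSeq (GRCm38.p6), and 20 of the 30 held genes have one. Results of some genes are not reported here.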

Additional observations from a re-analysis of the deposited data

Results flagged for a closer look

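Of 254 sets of values, one for each of 127 genes in Ctrl HFD or in Ctrl chow, 22 held a library far from the rest by Dixon's criterion. Chance flags about 1 in 20 groups. In Ctrl HFD, replicate 4 was highest for Gc (164.5 CPM), Jaml (1.228), Adamdec1 (5.416) and Mki67 (9.793), and lowest for Lpl (112.7). Replicate 2 was highest for Zdhhc22 (24.25 CPM), Hspa8 (602.6) and Dbp (111.3). Replicate 5 was lowest for Igf1 (0.317 CPM), and replicate 1 for Rfc4 (3.227).

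In Ctrl chow, replicate 3 was highest for 8 genes, namely Igf1 (0.9012 CPM), Mgll (1.596), Lama5 (9.141), Lamb2 (1.725), Lin7a (3.322), Aldh1a3 (21.14), Kdr (70.63) and Ctrb1 (199.9). Replicate 6 was highest for Pcx (304.5 CPM) and Kcnj11 (270.9). Fn1 was highest in replicate 2 (0.9088 CPM). Mucl2 was above 0 in replicate 5 alone (0.03082 CPM).

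The effect of diet differed between LIRKO and Ctrl mice in the edgeR test of that difference, given as LIRKO minus Ctrl in log2 terms with its Benjamini-Hochberg adjusted p. With all 18 libraries this held for Etv5, an ERK-induced transcription factor (-1.93, adjusted p = 0.0051). Without Ctrl HFD replicates 1 and 2 it held for Etv5 (-2.067, 0.00203), Fam167a (-1.775, 0.00196), Gpt2, an alanine aminotransferase (-1.079, 0.0263), Star, which carries cholesterol into mitochondria (-2.911, 0.0363), Stk35, a kinase (-1.733, 0.0409), Cntfr (1.001, 0.0489), Prkg2, a cGMP-dependent kinase (1.486, 0.0489), and Krt80, a keratin (-2.516, 0.0489). With the alike LIRKO chow libraries summed and all Ctrl libraries kept, none passed. With them summed and without Ctrl HFD replicates 1 and 2, Etv5 and Fam167a passed (-2.073 and -1.775, adjusted p = 0.0378 for each), and the 6 others had adjusted p of 0.246 to 0.369.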

How the results depend on the processing

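Counts of calls depended strongly on the settings. The 1914 genes called between Ctrl HFD and Ctrl chow became 34 without Ctrl HFD replicates 1 and 2, 1 with Ctrl libraries alone, 0 with both changes, 114 with the LIRKO chow pairs summed, 3959 in DESeq2, 73 in limma voom with quality weights, 457 with no filter and 1898 with RLE. Leaving out one library gave 69 (without Ctrl chow replicate 6) to 3877 (without Ctrl chow replicate 4), with 97 and 159 without Ctrl chow replicates 1 and 2, 1271 without 5, and 75, 97, 3826 and 3043 without Ctrl HFD replicates 1, 2, 3 and 5. The 34 became 0 with Ctrl libraries alone, 13 with RLE, 76 with no filter, 452 in DESeq2, 41 in voom, 1 with the pairs summed, and 0 to 267 with one more library left out (5, 4, 267, 96, 19 and 3 without Ctrl chow replicates 1 to 6, and 0, 0 and 64 without Ctrl HFD replicates 3 to 5). The 121 calls within the process lists became 3, 1, 0, 12, 213, 9 and 41 under the first 7 of these settings (in the order without the pair, Ctrl alone, both, summed, DESeq2, voom, no filter), and 6 to 182 with one library left out. In LIRKO 392 became 1191 without the Malat1-rich pair and 7 with the pairs summed. The test of the difference between genotypes gave 1, then 8 and 0, and 2 with both changes. The cause was not tested.

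Of 127 genes followed, 102 passed with all 18 libraries. None of these changed sign in any setting, and 26 kept the call without the Malat1-rich pair, 34 with the pairs summed, 102 with RLE, 102 in DESeq2, 27 in voom and 68 with no filter. Signs changed for genes that did not pass. Nkx6-1 was -0.3873 without the pair, -0.3828 with Ctrl libraries alone as well, and -0.1778 in voom. Ddit3 was -0.06841 and -0.06489 under the first 2 of these. Insr was 0.2283, 0.2332 and 0.09994 under all 3, and 0.03482 and 0.01967 without HFD replicate 1 or 2, with -0.1825 the lowest with one library left out. Mki67 was -0.1187 without HFD replicate 4 and up to 0.5504 with another library left out. Ppy was -0.2423 in voom, -0.01728 with no filter, and -0.3522 to 0.3884 with one library left out (-0.3522 and -0.07402 without HFD replicates 4 and 2, and -0.1099, -0.1901 and -0.14 without chow replicates 3, 5 and 6, the others being above 0). Ctrb1 was 1.375 in voom and 0.6925 without chow replicate 3, and down to -0.8831 with another library left out. No paired analysis was possible because the labels give no replicate numbers. Low counts limit genes such as Mucl2, Apol7c and Cyp1b1.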
